A study of Mus musculus with 4 samples.

Results

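Polycomb repressive complex 2 (PRC2) is the enzyme complex that methylates lysine 27 of histone H3, and the transcripts of its subunits were followed through knockdown and re-expression of YTHDF2, a cytoplasmic reader of N6-methyladenosine (m6A) in RNA. The subunit genes were taken by name: Ezh1, Ezh2, Eed, Suz12, Jarid2, Mtf2, Aebp2, Phf19, Rbbp4 and Rbbp7, and all 10 were found among the 50559 genes of the count table. The data were 4 poly(A)-selected RNA-seq libraries from E14 cells, a line of mouse embryonic stem cells (ESCs), which were kept on gelatin in serum replacement medium with leukemia inhibitory factor. The control library, shScram+EV (labelled shscr_EV), carried a scrambled short hairpin RNA and an empty vector. The shYthdf2+EV library (labelled shYthdf2_EV) carried a hairpin against Ythdf2 and the empty vector. The other two carried the same hairpin with a construct for wild-type YTHDF2 (shYthdf2+DF2WT, labelled shYthdf2_WT) or for a form with its m6A binding mutated (shYthdf2+DF2Mut, labelled shYtdhf2_Mut). Hairpins were delivered by lentivirus and the lines were selected with puromycin, so each group was a selected cell population, and the hairpin against Ythdf2 was shared by the knockdown and both rescues. They are called the control, the knockdown, the wild-type rescue and the mutant rescue, and read counts below are given in that order. Each group was 1 library, so no test between groups was possible. Every interval given is a 95% interval for counting error only, and it says nothing of how far another culture of the same line would differ.

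PRC2 is built on a catalytic subunit, EZH1 or EZH2, held by EED and SUZ12 and joined by a histone chaperone, RBBP4 or RBBP7. EED binds the trimethylated mark and helps the complex spread it, and SUZ12 is the scaffold on which accessory subunits compete. The Polycomb-like proteins PHF1, MTF2 and PHF19 define the form called PRC2.1, whereas JARID2 and AEBP2 define PRC2.2. In ESCs the mark covers the promoters of many developmental regulators, the Hox genes among them. YTHDF2 is known for leading m6A-marked transcripts to decay.

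The widest differences among the 10 genes were those of Ezh1 and Phf19. They were lower in the knockdown than in the control, at 59.8% and 45.5% of its level, higher again with wild-type YTHDF2 and low with the mutant form. Their more abundant paralogs Ezh2 and Mtf2 stood at 92.6% and 104% of the control on knockdown. Jarid2 ran the other way on a smaller scale, at 124% of the control on knockdown. Suz12 was lower in the knockdown, at 80.4%, and was not higher with the wild-type construct.

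The promoters of these members are shown because the transcripts moved in unlike directions, and they let the start regions be set side by side. RefSeq windows of 300 bases, from 250 before to 50 after the transcript start (mouse build GRCm38.p6, read 5′ to 3′ on the gene's strand), were found for all 10 genes, in 14 windows. Capitals mark 2 octamers of the kind bound by E2F factors, TTTGGCGC and TTTCCCGC, and the pentamer CCAAT, each searched on both strands. The motifs were chosen after the values were seen.
Ezh1 promoter, chr11:101226414-101226713 (-): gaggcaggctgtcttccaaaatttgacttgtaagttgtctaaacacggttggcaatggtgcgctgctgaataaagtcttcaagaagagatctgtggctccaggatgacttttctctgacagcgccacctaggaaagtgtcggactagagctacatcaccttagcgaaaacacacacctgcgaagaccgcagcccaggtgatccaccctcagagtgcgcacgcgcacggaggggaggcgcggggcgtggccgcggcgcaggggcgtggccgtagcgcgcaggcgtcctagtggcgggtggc
Phf19 promoter, chr2:34913927-34914226 (-): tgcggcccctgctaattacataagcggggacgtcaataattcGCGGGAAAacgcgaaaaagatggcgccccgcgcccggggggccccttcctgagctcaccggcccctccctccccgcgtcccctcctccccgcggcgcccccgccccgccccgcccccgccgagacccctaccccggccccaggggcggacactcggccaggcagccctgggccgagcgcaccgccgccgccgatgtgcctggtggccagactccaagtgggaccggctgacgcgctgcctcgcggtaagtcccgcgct
Ezh2 promoter, chr6:47594981-47595280 (-): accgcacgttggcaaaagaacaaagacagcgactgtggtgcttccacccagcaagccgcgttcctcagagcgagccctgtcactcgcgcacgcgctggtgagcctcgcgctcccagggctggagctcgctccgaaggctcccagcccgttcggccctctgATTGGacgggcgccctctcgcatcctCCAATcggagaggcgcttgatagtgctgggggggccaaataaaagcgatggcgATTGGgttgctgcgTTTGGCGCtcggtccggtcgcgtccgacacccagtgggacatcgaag
Suz12 promoter, chr11:79992856-79993155 (+): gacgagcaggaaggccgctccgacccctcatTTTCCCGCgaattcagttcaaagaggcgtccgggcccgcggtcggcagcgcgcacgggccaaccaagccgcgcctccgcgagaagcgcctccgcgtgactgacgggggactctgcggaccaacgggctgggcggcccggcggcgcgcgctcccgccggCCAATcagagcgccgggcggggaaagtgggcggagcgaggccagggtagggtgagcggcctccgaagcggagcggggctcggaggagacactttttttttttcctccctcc
Jarid2 promoter, chr13:44730524-44730823 (+): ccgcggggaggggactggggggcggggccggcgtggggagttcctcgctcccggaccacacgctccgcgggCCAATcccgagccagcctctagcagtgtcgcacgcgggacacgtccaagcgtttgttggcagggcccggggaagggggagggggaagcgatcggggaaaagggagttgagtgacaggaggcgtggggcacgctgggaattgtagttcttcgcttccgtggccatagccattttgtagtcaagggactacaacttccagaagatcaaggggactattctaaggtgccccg
The octamer TTTGGCGC was found in Ezh2 and in 0.514% of all 32851 windows, and TTTCCCGC was found in Suz12 and Phf19 and in 1.07% of all windows. CCAAT was in at least 1 window of 8 of the 10 genes and of 41.1% of all 27025 genes, and in 37.4% of all windows. The genes without it were Ezh1 and Phf19, the pair lowest on knockdown. Aebp2 and Mtf2 held it only at starts downstream of their first, so over the first window of each gene the count was 6 of 10. Jarid2 has a further window, not printed, which holds CCAAT as well. A match is a run of letters and was not tested as a binding site.

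Library depth was 31533129 to 35742335 counted reads. A gene with no read was taken as below 3 reads, or 0.0835 to 0.0949 CPM (scaled counts per 1000000 reads). Counting was by read and not by fragment, so intervals were set on read pairs. Ythdf2, the targeted gene, went from 2806 reads in the control to 662 in the knockdown, which is -2.27 on the log2 scale (interval -2.45 to -2.10). It had 7661 reads with the wild-type and 6925 with the mutant construct, so the rescues stood above the control, at 262% and 245% of its level. Pluripotency markers Pou5f1, Sox2, Nanog, Esrrb, Zfp42, Klf4 and Dppa5a, summed, stood between 4215 and 4698 CPM. The 5 markers of 2-cell-like cells, summed, moved with the knockdown, at 129, 439, 140 and 391 CPM. Zscan4a, Zscan4c, Zscan4d and Usp17la each went as the sum did. Duxf3, with 10, 46, 16 and 18 reads, was not kept high with the mutant construct, at -1.16 (-2.47 to -0.01) from the knockdown. Of 7 fibroblast markers, Dcn and Lum were at 0 in all 4 libraries. Their sum was 16.5, 11.6, 11.4 and 10.9 CPM, highest in the control. Mitochondrial genes took 8.44%, 6.75%, 6.34% and 6.14% of the reads, also highest in the control. In bulk RNA, a change in the share of cells of a type and a change in RNA per cell cannot be told apart, and the part of the 2-cell-like cells in the values that follow was not tested.

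Levels of the subunits were compared as CPM per kilobase of exon (the FPKM scale), using the summed exon length that the count table gives. Rbbp4 was highest, with a mean of 133 over the 4 libraries, followed by Rbbp7 at 115, Eed at 108, Suz12 at 71.4, Ezh2 at 49.8, Mtf2 at 46.5, Jarid2 at 26.7, Aebp2 at 19.5, Ezh1 at 7.68 and Phf19 at 6.07. The ranges over libraries overlapped between Rbbp7 and Eed, between Ezh2 and Mtf2, and between Ezh1 and Phf19, and no other neighbours overlapped. Ezh1 and Phf19 came last. Exon length is summed over isoforms, 25346 bases for Jarid2, so genes with long rare isoforms are understated and the order depends on these lengths. Together the 10 genes took 0.302% of all reads in the control (exact binomial interval 0.299 to 0.305), 0.312% (0.310 to 0.315) in the knockdown, 0.287% (0.284 to 0.289) in the wild-type rescue and 0.321% (0.318 to 0.324) in the mutant rescue.

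**Figure D1:**
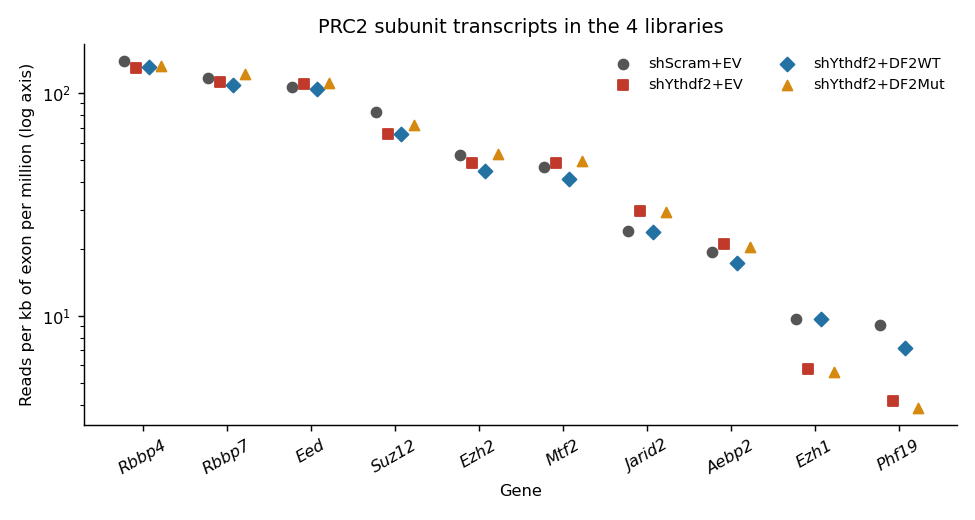
Level of each PRC2 subunit transcript in the 4 libraries, as TMM-scaled CPM per kilobase of exon on a log axis, with 1 point for each library and no replicates. The 8 genes on the left keep within a narrow band across libraries, whereas Ezh1 and Phf19 split into a higher pair (shScram+EV and shYthdf2+DF2WT) and a lower pair.

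The counts of members past a fold were small. A ratio of at least 1.2-fold was used as the mark of a difference among the 10817 genes with a mean of at least 200 reads, which all 10 subunits passed. On knockdown 1 subunit was higher (Jarid2) and 3 were lower (Ezh1, Suz12 and Phf19), where 20.3% of all genes were at least 1.2-fold higher and 19.4% lower. With wild-type YTHDF2 against the knockdown, 2 were higher (Ezh1 and Phf19) and 2 lower (Jarid2 and Aebp2), beside 17.5% and 17.3% of all genes. With the mutant form against the knockdown, 0 subunits passed in either direction, beside 6.79% of genes higher and 10.9% lower. Between the constructs, mutant against wild-type, 2 were higher (Jarid2 and Mtf2) and 2 lower (Ezh1 and Phf19), beside 22.6% and 24.0% of all genes. With 10 genes, counts of 0 to 3 in a direction are not far from these shares, and nothing is read from them about the complex. The median log2 ratio over the 10 genes was -0.08 on knockdown, -0.06 for wild-type against knockdown, 0.02 for mutant against knockdown and 0.15 for mutant against wild-type. Over the same 10817 genes the medians were 0.00, -0.00, 0.02 and 0.01.

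**Figure D2:**
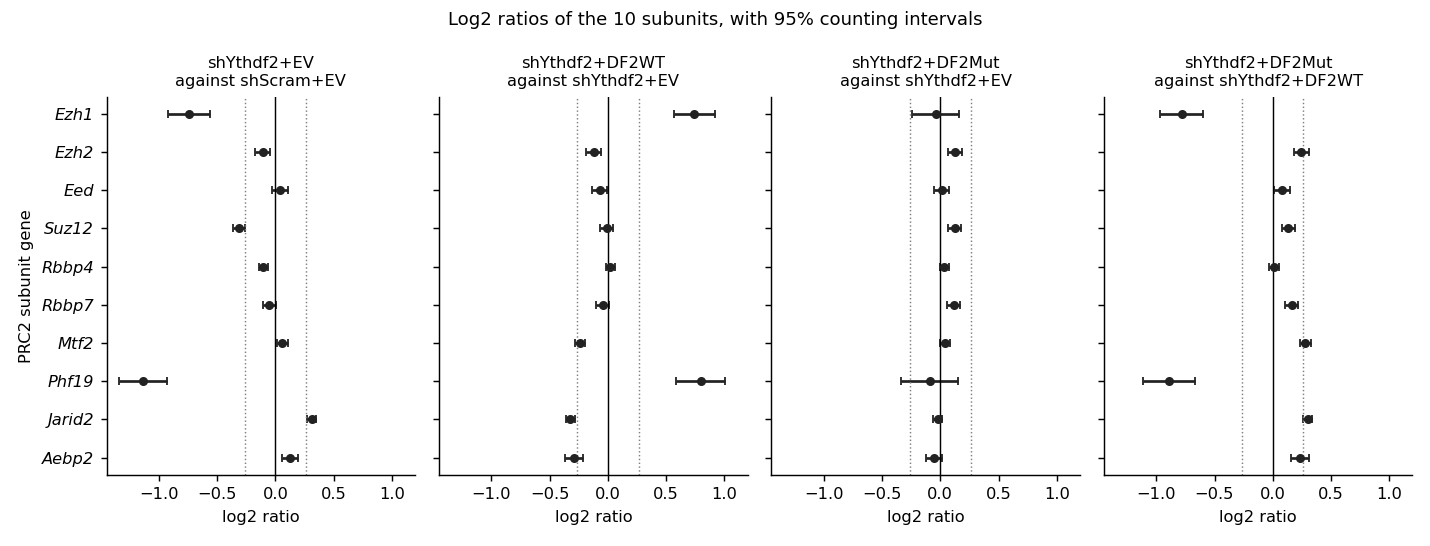
Log2 ratio of each subunit in the 4 comparisons, with 95% counting intervals as bars and dotted lines at 1.2-fold. Ezh1 and Phf19 lie left of the lines in the first and last panels and right of them in the second, while in the third panel every subunit lies between the lines.

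Ezh1 encodes the less active of the H3K27 methyltransferases, prominent in differentiated cells (mm39, chr11:101081941-101117289, minus strand). Its reads numbered 1287 in the control, 875 in the knockdown, 1340 in the wild-type rescue and 753 in the mutant rescue. The control and the wild-type rescue were high and the other two libraries low. The log2 ratio on knockdown was -0.74 (interval -0.92 to -0.57), and 2.50% of the 10817 genes were as low or lower. Wild-type YTHDF2 against knockdown gave 0.74 (0.57 to 0.92), and the wild-type rescue lay at -0.00 (-0.16 to 0.16) from the control. Mutant against wild-type gave -0.78 (-0.97 to -0.60).

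Ezh2 encodes the main methyltransferase of proliferating cells (chr6:47507208-47572309, minus strand). Its reads were 7959, 8383, 7058 and 8089 in the same order. Its log2 ratios were small, at -0.11 (-0.17 to -0.05) on knockdown and 0.25 (0.18 to 0.31) for mutant against wild-type. The second of these went as low as 0.06 over the other settings tried. Per exon length, Ezh2 exceeded Ezh1 by 5.44 times (5.01 to 5.92) in the control and by 8.43 times (7.64 to 9.33) in the knockdown. The ratio was 4.64 (4.27 to 5.04) with the wild-type and 9.45 (8.50 to 10.5) with the mutant construct. Ezh1 thus made up 15.5% of the transcript of both enzymes in the control, 10.6% in the knockdown, 17.7% in the wild-type rescue and 9.57% in the mutant rescue. The intervals of the high-ratio pair did not meet those of the low-ratio pair.

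Phf19 encodes a Polycomb-like protein whose Tudor domain reads methylated H3K36 (chr2:34783764-34804365, minus strand). It varied most of the 10 genes, with 1185, 613, 975 and 509 reads. Its log2 ratio on knockdown was -1.14 (-1.34 to -0.94), and 0.508% of genes were as low or lower. It was the only subunit past 2-fold on knockdown, where the same held for 5.70% of the 18586 genes with a mean of at least 10 reads and 7.10% were as far above. Wild-type against knockdown gave 0.80 (0.59 to 1.01), which left Phf19 at 79.0% of the control, and mutant against wild-type gave -0.89 (-1.11 to -0.67). The mutant rescue stood at 42.7% of the control. No subunit was past 2-fold in the other 3 comparisons, where 5.15% and 5.58% (wild-type against knockdown), 2.65% and 3.38% (mutant against knockdown) and 5.40% and 6.21% (mutant against wild-type) of genes were higher and lower.

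Mtf2 encodes the Polycomb-like protein that is most used in ESCs and binds unmethylated CpG-rich DNA (chr5:108213518-108257085, plus strand). Its reads were 15269, 18102, 14058 and 16476, with the lowest level in the wild-type rescue. Its log2 ratio was 0.06 (0.02 to 0.10) on knockdown and 0.28 (0.23 to 0.32) for mutant against wild-type. Phf1, the remaining Polycomb-like gene, had 238, 436, 363 and 293 reads and a log2 ratio on knockdown of 0.69 (0.36 to 1.02). Summed per exon length, the 3 Polycomb-like genes came to 58.7, 57.6, 52.8 and 57.5 CPM per kilobase. Within that sum Phf19 took 15.5%, 7.18%, 13.6% and 6.75%, and Phf1 took 5.25%, 8.61%, 8.54% and 6.55%. The sum changed little while its make-up shifted between Phf19 and the other members.

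Jarid2 encodes a catalytically inactive Jumonji protein that helps bring PRC2.2 to chromatin (chr13:44881817-45075119, plus strand). Its 19222 reads in the control and 19847 in the wild-type rescue were below the 27107 in the knockdown and 23594 in the mutant rescue. The log2 ratios were 0.31 (0.27 to 0.35) on knockdown, -0.32 (-0.36 to -0.29) for wild-type against knockdown and 0.30 (0.26 to 0.34) for mutant against wild-type. A ratio as high as that on knockdown was found for 17.2% of genes. Aebp2, a zinc finger cofactor of PRC2.2 (chr6:140567480-140624198, plus strand), had 5576, 6915, 5174 and 5887 reads. It differed from the control by 0.12 (0.05 to 0.20) on knockdown and was at -0.29 (-0.36 to -0.22) for wild-type against knockdown. Aebp2 was lowest in the wild-type rescue, whereas Jarid2 there was at -0.01 (-0.05 to 0.03) from the control.

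Suz12 (chr11:79883932-79924949, plus strand) had 11335, 10371, 9428 and 10005 reads and was highest in the control. The log2 ratio was -0.31 (-0.37 to -0.26) on knockdown and -0.01 (-0.07 to 0.05) for wild-type against knockdown, so it stood at 79.9% of the control in the rescue library. Eed (chr7:89603862-89630184, minus strand) had 6974, 8156, 7118 and 7280 reads, and its log2 CPM spanned 0.08 over the 4 libraries, the narrowest range of the 10. Rbbp4 (chr4:129200893-129229163, minus strand) had 19387, 20529, 19077 and 18594 reads and spanned 0.10. Rbbp7 (chrX:161543368-161562086, plus strand) had 9580, 10496, 9310 and 10068 reads and spanned 0.16. RBBP4 and RBBP7 also serve in other chromatin complexes, so their transcripts do not belong to PRC2 alone. Per exon length, Rbbp4 exceeded Rbbp7 by 1.19 times in the control and 1.08 times in the mutant rescue. Exons of Rbbp7 share 174 bases with Txlng on the opposite strand, which had 2428 to 3398 reads, and those of Rbbp4 share 1341 bases with Sync, which had 87 to 121 reads.

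The comparisons of shYthdf2+EV with shScram+EV and of shYthdf2+DF2Mut with shYthdf2+DF2WT share no library, so their values can be set side by side. A level at least 1.5-fold lower in both was found for 2.13% of the 10817 genes, Ezh1 and Phf19 among them. At least 1.5-fold higher in both were 2.26% of genes and no subunit. At 1.2-fold, Jarid2 was higher in both, as were 9.07% of all genes. Transcript GC content moved with the second of these comparisons, with a median log2 ratio of 0.29 in the tenth of genes lowest in GC and -0.28 in the tenth highest, whereas on knockdown these medians were 0.06 and 0.04. Ezh1 and Phf19 had the highest GC of the subunits, 51.2% and 53.9%, against 38.2% to 48.8% in the other 8 and a median of 49.5% over all genes. Over all settings tried, among them ratios relative to genes of like GC and exon length, mutant against wild-type stayed between -0.81 and -0.75 for Ezh1 and between -0.92 and -0.77 for Phf19. After the GC and length correction Mtf2 came to -0.02 and Jarid2 to 0.14, so neither was past 1.2-fold, and Aebp2 came to -0.05 for wild-type against knockdown.

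**Figure D3:**
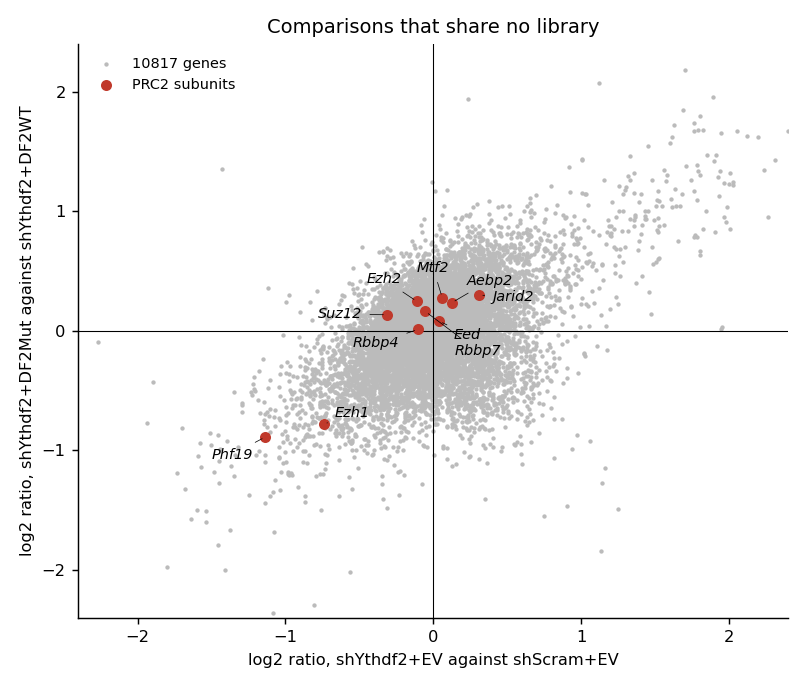
Log2 ratio on knockdown (x axis) against log2 ratio of the mutant to the wild-type rescue (y axis) for the 10817 genes in grey and the 10 subunits in red, with 8 genes beyond the axes. Phf19 and Ezh1 lie low in both, Jarid2 lies above 0 in both and Suz12 lies left of the centre. The other subunits lie nearer the centre of the cloud.

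The gene with the profile closest to that of Phf19 over the 4 libraries was 2410003I16Rik, by Euclidean distance of centred log2 CPM among 10816 genes, with 787, 404, 621 and 349 reads and a distance of 0.0758. Xlr3b followed at 0.117. Xlr3b belongs to a family of near-identical X-linked copies, so its count is uncertain. Ezh1 came 100th, at 0.348, and the other 8 subunits lay at 0.935 to 1.34.

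The tetramer GGAC, the core of the usual m6A consensus, was counted in the longest annotated transcript of each gene. Phf19 had 5.08 per kilobase and Aebp2 4.21, above the median of 3.96 over all genes. Ezh1 had 2.61 and Jarid2 2.87, near the median of 2.77 over the 10 subunits, and Suz12 had the fewest at 1.14. The pair that moved together thus lay on opposite sides of the all-gene median, and no m6A was measured in these libraries.

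Among 5 further PRC2 genes, Epop, Phf1 and Ezhip were at least 1.2-fold higher on knockdown and none was lower, beside 20.3% and 19.4% of all genes. For wild-type against knockdown 3 of the 5 were lower, beside 17.3% of all genes, and for mutant against knockdown 4 were lower, beside 10.9%. For mutant against wild-type 1 was higher, beside 22.6%. Epop encodes a PRC2.1 cofactor that links the complex to Elongin BC, and its reads numbered 3092, 7723, 5226 and 5544. On knockdown its log2 ratio was 1.13 (1.05 to 1.22) and that of wild-type against knockdown was -0.44 (-0.51 to -0.36), short of the control level. Ezhip encodes an inhibitor of PRC2 catalysis that acts like an oncogenic histone H3 mutant, and it had 223, 888, 405 and 607 reads. Its level in the knockdown was 349.5% of that in the control, a log2 ratio of 1.81, and in the wild-type rescue it was 49.8% of that in the knockdown. The level of Ezhip per exon length relative to Ezh2 was 0.0609 in the control, 0.230 in the knockdown, 0.125 in the wild-type rescue and 0.163 in the mutant rescue. Lcor and Lcorl, whose loci encode PALI cofactors of PRC2.1, had log2 ratios of -0.08 and 0.20 on knockdown, and Lcorl shares exon bases with Ncapg on the opposite strand.

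Of the H3K27 demethylases, Kdm6a was counted at 2233, 3448, 2110 and 3591 reads. Its log2 ratio was 0.44 (0.33 to 0.55) on knockdown and 0.82 (0.71 to 0.93) for mutant against wild-type. Kdm6a was higher in the knockdown and the mutant rescue, opposite to Ezh1. Kdm6b, the inducible demethylase, had 2655, 3107, 3132 and 2577 reads and a log2 ratio of 0.04 on knockdown.

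**Figure D4:**
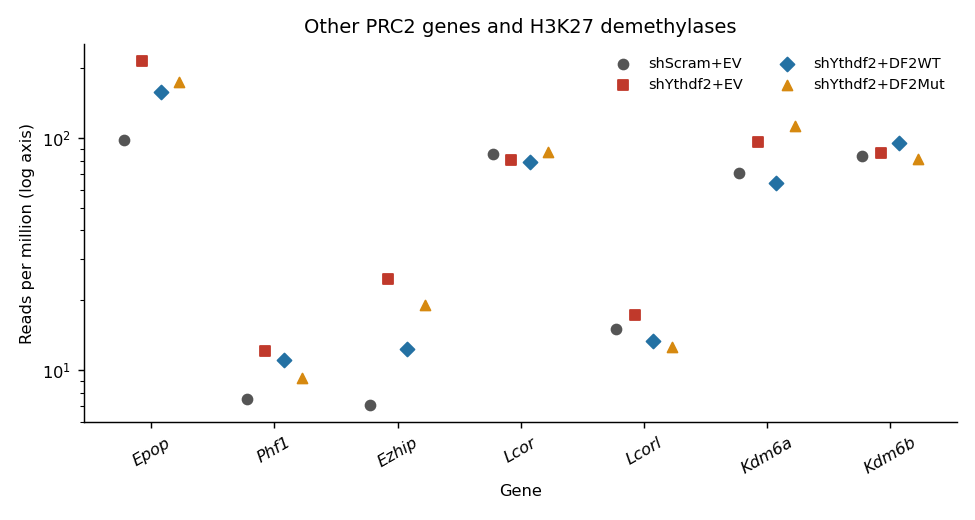
TMM-scaled CPM of 5 further PRC2 genes and 2 H3K27 demethylases in the 4 libraries, on a log axis, with 1 point for each library. Epop and Ezhip are lowest in shScram+EV and highest in shYthdf2+EV, with both rescue libraries between.

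PRC1 is the partner complex that ubiquitinates histone H2A and in part reads the mark laid by PRC2. Of 22 PRC1 genes, 20 had a mean of at least 200 reads, and on knockdown 7 of these were at least 1.2-fold higher and 2 lower, with a median log2 ratio of 0.10, where 20.3% and 19.4% of all genes were higher and lower. For wild-type against knockdown 1 was higher and 4 lower, beside 17.5% and 17.3% of all genes. For mutant against knockdown 1 was higher and 1 lower, beside 6.79% and 10.9%, and for mutant against wild-type 5 were higher and 2 lower, beside 22.6% and 24.0%. The highest of the 22 were Cbx8, a reader of methylated H3K27, with 41, 113, 65 and 58 reads (log2 ratio 1.27, 0.52 to 2.08), and Ring1, an E3 ligase subunit, with 249, 435, 409 and 289 reads (0.62, 0.29 to 0.95). The lowest were Pcgf5, of the variant complexes, with 701, 537, 663 and 600 reads (-0.57, -0.81 to -0.34), and Phc3, a Polyhomeotic subunit, with 1422, 1304, 1401 and 1080 reads (-0.31, -0.47 to -0.16). Bmi1, a core subunit picked once its counts were known, separated the libraries in the same way as Kdm6a, at 672, 1096, 565 and 1077 reads.

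The Hox genes, body-patterning regulators that carry the mark in ESCs, had few reads. Only 2 of them, Hoxc13 and Hoxd13, had a mean of at least 200. Of 39, 25 had a mean of at least 10 reads, and on knockdown 12 of these were at least 2-fold higher and 0 lower, beside 7.10% of all genes higher and 5.70% lower. Their median log2 ratio was 0.70, with counts so low that the interval lay above 0 for 12 of the 25. Genes with so few reads pass a fold more readily than abundant ones. The mean was taken over all 4 libraries, so a gene at 0 in the control, such as Hoxc10, passed the filter only through the others. This favours genes that were higher on knockdown. For wild-type against knockdown 0 were higher and 6 lower, beside 5.15% and 5.58% of all genes. For mutant against knockdown 1 was higher and 1 lower, beside 2.65% and 3.38%, and for mutant against wild-type 4 were higher and 0 lower, beside 5.40% and 6.21%. Hoxc10 had 0 reads in the control and 16, 10 and 14 in the others. Taking 3 reads for the library at 0, it was 4.69-fold higher on knockdown, a value that leaves out counting error in the 16 reads. Hoxd11 had 3, 43, 23 and 43 reads, and its log2 ratio on knockdown of 3.46 (1.39 to 7.53) rests on 3 reads in the control. Exons of Hoxd11 overlap those of Hoxd10, so the split of reads between them is uncertain. The lowest was Hoxb13, with 110, 66, 100 and 70 reads (-0.92, -1.59 to -0.27). Summed by cluster, the Hoxd genes stood out, at 118, 564, 248 and 494 reads, a log2 ratio of 2.07 (1.66 to 2.50) on knockdown and 1.04 (0.73 to 1.37) for mutant against wild-type. Hoxd13 alone, picked once its counts were known, gave 54, 341, 149 and 278 of these reads. Without it the sum was 64, 223, 99 and 216, a log2 ratio of 1.61 (1.04 to 2.23). The Hoxa, Hoxb and Hoxc sums had log2 ratios of 0.26, 0.19 and 0.33 on knockdown.

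**Figure D5:**
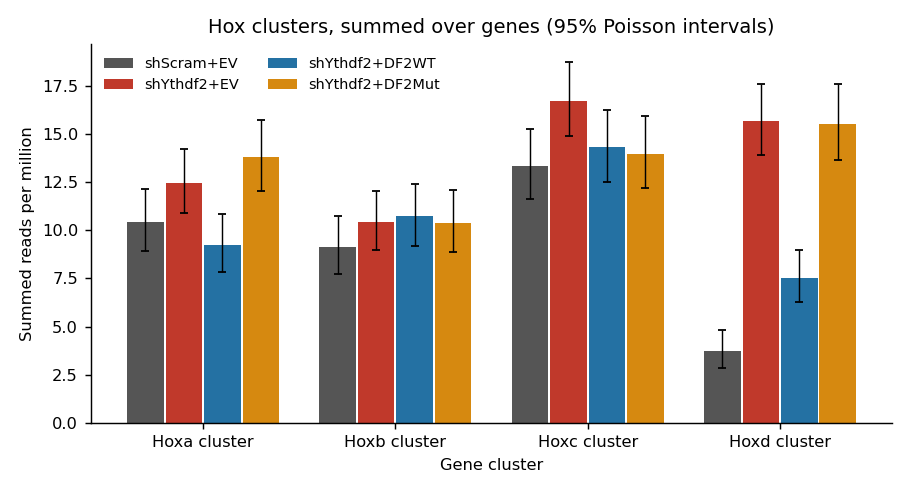
CPM summed over the genes of each Hox cluster in the 4 libraries, with 95% Poisson intervals on read pairs for counting error. The Hoxd cluster is lowest in shScram+EV and over 4 times higher in shYthdf2+EV and shYthdf2+DF2Mut, while the intervals of the Hoxb bars overlap.

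Of 36 other developmental regulators often marked by H3K27me3 in ESCs, 22 had a mean of at least 10 reads. On knockdown 5 were at least 2-fold higher and 1 lower, with a median log2 ratio of 0.50, where 7.10% of all genes were higher and 5.70% lower. For wild-type against knockdown 1 was higher and 5 lower, with a median of -0.49, beside 5.15% and 5.58% of all genes. For mutant against knockdown 0 were higher and 0 lower, beside 2.65% and 3.38% of all genes. The median was -0.24, with 16 of the 22 below 0, where the median of all genes under the same filter was 0.01. The median of the mutant rescue against the control was 0.03. For mutant against wild-type 5 were higher and 1 lower, beside 5.40% and 6.21% of all genes, with a median of 0.18. The highest on knockdown were Sox7, an endoderm factor, with 8, 28, 18 and 36 reads, and Isl1, a motor neuron and heart factor, with 14, 41, 14 and 36 reads. The lowest were Pax9, with 18, 8, 10 and 6 reads, and Lhx5, with 34, 20, 10 and 23. Counts were low here as well, and on knockdown the interval lay above 0 for 8 of the 22 and below 0 for 1. It spanned 0 for Sox7 (-0.05 to 3.68) and for Pax9 (-3.51 to 0.49). Summed markers of primitive endoderm, which this list shares in part, were at 10.9, 16.9, 7.96 and 17.1 CPM, and their part in the list was not tested. The markers differed among themselves. Dab2 (99, 237, 81 and 265 reads) and Gata6 (85, 163, 69 and 143) went as the sum did, whereas Gata4, with 133, 121, 72 and 71 reads, was highest in the control. Sox17 had 20 reads in both the control and the mutant rescue.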

How the data were processed

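Poly(A)-selected, strand-marked RNA from 4 E14 ESC populations was sequenced as read pairs. Per the labels, reads were trimmed with fastp 0.19.4 and aligned with HISAT2 2.2.1, and DESeq2 1.40.2 is named for comparison. The labels give build mm10, whereas the header of the deposited counts names an mm39 RefSeq annotation. Coordinates are those of that table, and promoters are on GRCm38.p6. The deposited counts are whole-number reads per gene from featureCounts 2.0.3, with both mates counted and, per the file headers, no strand setting. Each group was 1 library. The study describes replicates, which were not analysed here. The members and lists were chosen with earlier results of these data known.

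Counts were scaled by TMM (edgeR 4.0.16, R 4.3.3) over genes with a mean of at least 10 reads. Log2 ratios used a prior count of 0.5. Intervals were exact (Clopper-Pearson, 95%) on reads divided by 2, for counting error only. The code was tested on simulated data in Python 3.11.15. Named genes were the 10 subunits, Ythdf2, all further PRC2 genes and demethylases, the 2 highest and 2 lowest on knockdown (mean of at least 10 reads) of the PRC1, Hox and developmental lists, and the 3 genes most like the most variable subunit. Some genes that this rule takes are not reported here. GC content and GGAC came from the longest GENCODE transcript of each symbol and were found for 98.6% of genes. Alternatives were RLE, total-count and upper-quartile scaling, TMM without mitochondrial genes, a prior count of 5, correction for GC and length in 10 by 5 bins, subtraction of the chromosome median, and a fold of 1.5.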

Additional observations from a re-analysis of the deposited data

How the results depend on the processing

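Of 400 values computed under other settings, 355 kept within their interval or within 1.5 times their count. Correction for GC content and exon length gave a median of -0.043 for mutant against wild-type, with 0 subunits at least 1.2-fold higher, and 1 subunit lower for wild-type against knockdown. It also turned Mtf2 for mutant against wild-type to -0.022. In that comparison the lowest values over all settings were -0.09 for Suz12, -0.06 for Aebp2 and -0.17 for Rbbp4, from 0.14, 0.24 and 0.01. Ezh2 went down to 0.06, from 0.25. Relative to the chromosome median, 0 subunits were higher for mutant against wild-type and 1 was lower for wild-type against knockdown. Upper-quartile scaling left 1 higher for mutant against wild-type. At 1.5-fold, 0 were higher on knockdown, 0 lower for wild-type against knockdown and 0 higher for mutant against wild-type. The cause of these shifts was not tested. Over the settings, Ezh1 stayed between -0.76 and -0.65 and Phf19 between -1.16 and -1.09 on knockdown. With 1 library for each group, none could be left out, and biological spread is unknown. No paired analysis was possible because each group has 1 library.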
